A study of Homo sapiens with 8 samples.

Results

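The genes described here encode the machinery that prepares replication origins and copies DNA at the fork. The set holds 47 genes, chosen by symbol from the roles of their products and not by a cut on values. Earlier results of these data were known when it was chosen. All 47 were among the 21510 genes of the deposited expression table, and all 47 passed the filter on low values, which kept 12567 genes with an RPKM (reads scaled to gene length and library size) of at least 1 in at least 2 libraries. By role, 9 act in origin licensing, 9 in helicase activation and origin firing, 10 are polymerase and primase subunits, 11 belong to the sliding clamp, its loader and Okazaki fragment maturation, and 8 bind single-stranded DNA or protect the fork. The study sequenced poly(A) RNA of N/TERT-2G cells, a line of immortalised human skin keratinocytes that carried a tetracycline (Tet)-inducible short hairpin RNA against AREG, which encodes amphiregulin, a ligand of the EGF receptor. Every library came from this line, so the controls carried the hairpin construct too. The groups compared were sampled after 60 h in serum-free keratinocyte medium. They were control (3 libraries, no Tet), Tet (3 libraries, 1 µg/ml of the drug) and Tet+EGF (2 libraries, the same dose of Tet together with EGF, the recombinant growth factor, at 20 ng/ml). Tet and the induced hairpin were always given together, so their effects cannot be told apart. The labels do not say whether the replicates were separate cultures, and p-values then measure only the spread between these samples, which may be technical.

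Origins are licensed in G1, when the origin recognition complex, CDC6 and CDT1 load the MCM2 to MCM7 ring onto DNA as an inactive helicase. In S phase the kinase CDC7 with its activator DBF4, and further factors, recruit CDC45 and the GINS complex to the ring, which turns it into the moving helicase. DNA polymerase alpha with primase then lays down primers, polymerases delta and epsilon extend them on the PCNA clamp, and FEN1 and DNA ligase 1 join the lagging-strand fragments. Transcription of many of these genes is known to rise with entry into the cell cycle under E2F factors, and keratinocytes lose it when they stop dividing and differentiate.

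Values below are RPKM in the order replicate 1, 2 and 3 unless a fold change is named. Per the labels, control replicate 1, Tet replicate 1 and both Tet+EGF libraries belonged to batch 2, and the other 4 libraries to batch 1. The labels give an average of 31 M reads per lane. Summed RPKM per library ranged from 426337 to 454071. AREG, the targeted gene, was at 316, 202 and 189 without Tet, 6.63, 16.7 and 16.2 with Tet and 20.9 and 17.4 with Tet+EGF, and fell by 4.17 on the log2 scale with Tet (SE 0.36 and adjusted p = 0.000109 by limma). The log2 fold change of AREG was -3.53 in batch 1 and -5.47 in batch 2, where 1 Tet library was set against 1 control. It was low in all 5 libraries labelled with Tet. Tet+EGF and Tet did not differ past the threshold with batch as a term (limma adjusted p = 0.288). Within batch 2 AREG was 1.46 higher on the log2 scale in the Tet+EGF libraries than in Tet replicate 1, the lone Tet library there. These values do not check which of the 5 received EGF. All 12 keratinocyte markers looked for passed the filter on low values, with sums of 30907 to 32975 in control, 46364 to 50186 in Tet and 27887 to 28828 in Tet+EGF libraries. KRT5, KRT14 and KRT17 held most of each sum. With Tet 6 of the 12 were called higher, these among them, and 5 lower (TP63, ITGA6, ITGB4, COL17A1 and LAMB3). Of all genes tested, 26.2% were called higher and 29.9% lower. Of 10 fibroblast markers 2 passed (DCN and COL1A1), and the list's sum was 1.32 to 2.93 in control, 15.4 to 18.2 in Tet and 3.42 to 3.80 in Tet+EGF libraries, with COL1A2, COL3A1, COL6A3, PDGFRA, PDGFRB and POSTN below 0.1 in each. Of 6 leukocyte markers 2 passed (CD68 and LCP1, both lower with Tet and both higher with Tet+EGF than with Tet), and the sum was 47.5 to 59.1 in control, 29.2 to 41.6 in Tet and 108.7 to 109.3 in Tet+EGF libraries, with PTPRC and CD3E below 0.1. Endothelial markers passed in 2 of 6 cases (KDR, higher with Tet, and ENG, lower), with sums of 9.43 to 10.4, 5.87 to 10.6 and 8.12 to 8.36 and PECAM1, CDH5 and TEK below 0.1, and 0 of 5 melanocyte markers passed. Whether these shifts had a part in the results below was not tested.

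With Tet, 46 of the 47 replication genes fell, 0 rose, and RPA1, a subunit of the main single-strand binding protein, did not pass (limma on log2(RPKM + 0.5) with group and batch as terms, Benjamini-Hochberg adjusted p over all 12567 genes, threshold 0.05). Among all genes tested, 29.9% were called lower and 26.2% higher in this comparison. The median log2 fold change of the 47 was -1.45, from -2.95 for CDC45 to -0.37 for RPA1, beside a median of -0.04 over all genes. Summed over the 47, RPKM came to 546, 1067 and 1053 without Tet, 310.3, 323 and 320.2 with Tet and 319 and 307 with Tet+EGF. The Tet and Tet+EGF sums lay close together, and all lay below the lowest control, which was replicate 1 of batch 2. For 39 of the 47 genes every Tet library lay below every control library, against 26% of all genes tested. The 8 genes whose groups overlapped were MCM2, MCM4, MCM5, MCM6, GINS3, POLA2, FEN1 and RPA1, in each case through control replicate 1. In RNA from a whole culture, fewer cells of a type and less RNA per cell cannot be told apart.

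**Figure D1:**
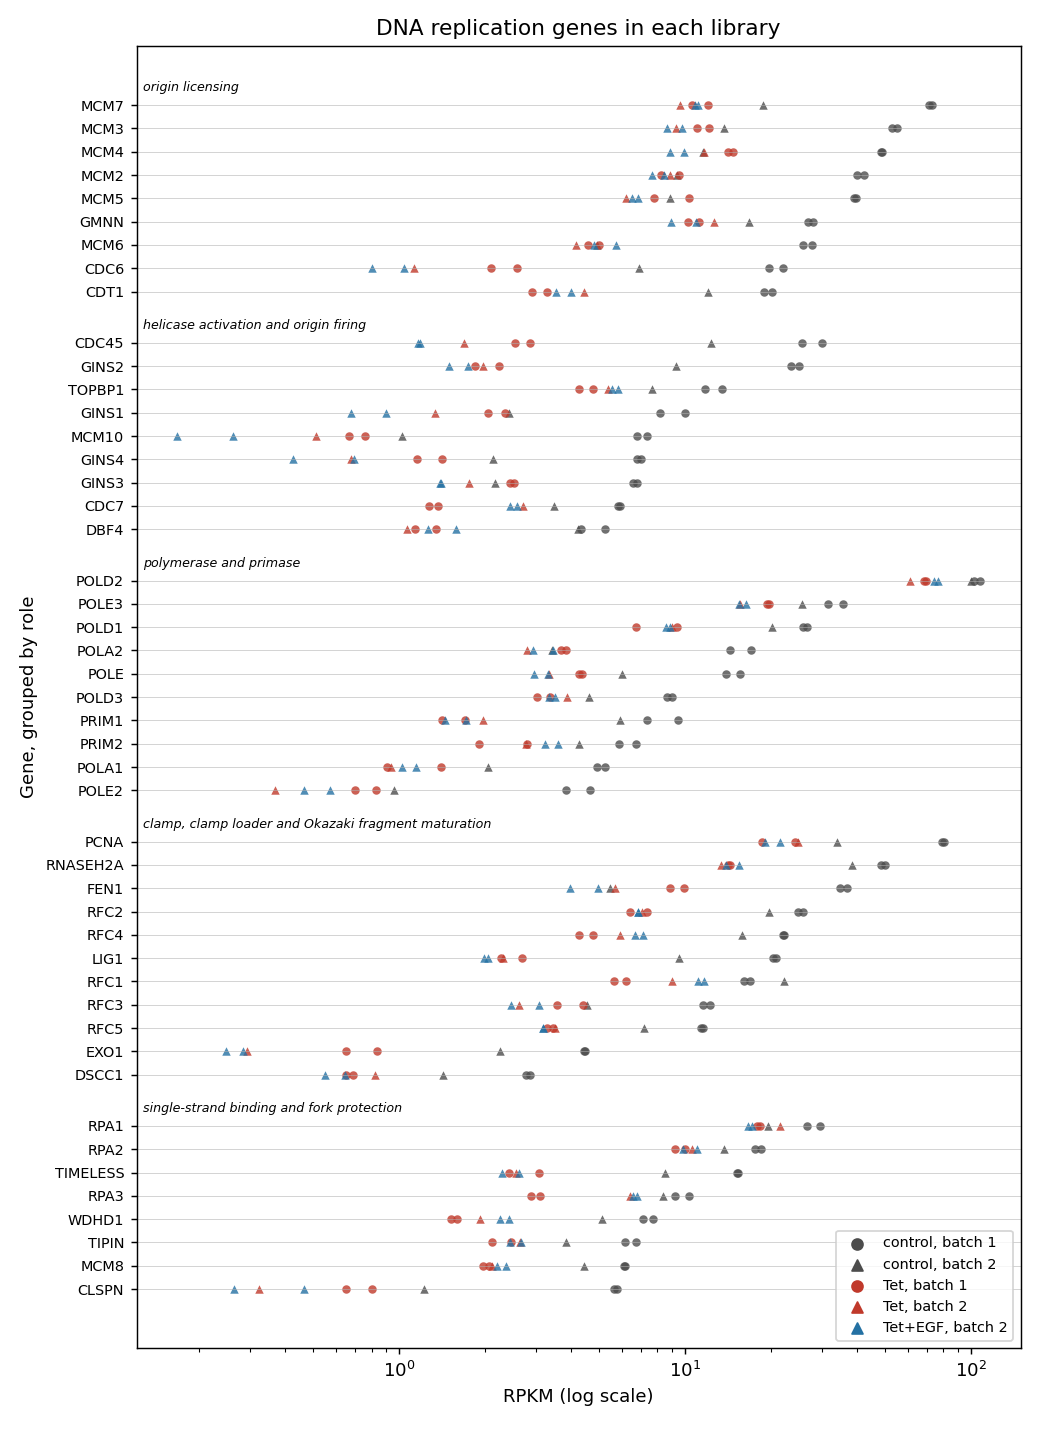
RPKM of each of the 47 replication genes (log scale) in each of the 8 libraries, grouped by role, with colour for group and shape for batch. Control libraries of batch 1 sit to the right for 46 genes, RFC1 being the exception, and for most genes the batch 2 control lies between them and the Tet and Tet+EGF libraries.

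All 9 origin licensing genes fell with Tet (median log2 fold change -1.63). CDC6, the ATPase that recruits the MCM ring to the origin, was at 6.89, 22.04 and 19.6 without Tet, 1.13, 2.58 and 2.10 with Tet and 1.04 and 0.800 with Tet+EGF. Every control exceeded every Tet library, and the Tet+EGF values lay below those of Tet. On the log2 scale Tet+EGF differed from Tet by -0.20 within batch 2, against the lone Tet library. With batch as a term the difference was 0.04 (limma adjusted p = 0.925). The log2 fold change of CDC6 with Tet was -2.67 (SE 0.17 and adjusted p = 3.54e-05 by limma). CDT1, which brings the ring to CDC6, was at 12.1, 20.2 and 18.9 without Tet, 4.42, 3.29 and 2.91 with Tet and 3.52 and 3.98 with Tet+EGF. Its control and Tet groups did not overlap, and its log2 fold change was -2.10 (SE 0.22 and adjusted p = 0.000249 by limma). GMNN, the inhibitor that holds CDT1 in check, was at 16.7, 26.9 and 28.00 without Tet, 12.6, 10.2 and 11.1 with Tet and 10.9 and 8.95 with Tet+EGF and fell by 1.01 (SE 0.19 and adjusted p = 0.00357 by limma). Within each library the ratio of CDT1 to GMNN RPKM was 0.723, 0.749 and 0.677 in controls, 0.349, 0.322 and 0.262 with Tet and 0.322 and 0.445 with Tet+EGF, a ratio chosen after its values were seen. On this ratio the batch 2 control lay between the other controls, and both treated groups lay below all of them.

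The 6 subunits of the MCM ring fell together, by 1.14 (MCM4) to 2.06 (MCM7) on the log2 scale. MCM7 was at 18.8, 73.3 and 71.05 without Tet, 9.62, 10.6 and 12.00 with Tet and 11.1 and 10.8 with Tet+EGF. All Tet and Tet+EGF values lay below the lowest control, which was replicate 1, and the log2 fold change was -2.06 (SE 0.31 and adjusted p = 0.00131 by limma). MCM2 was at 9.39, 42.2 and 39.9 without Tet, 8.82, 9.53 and 8.22 with Tet and 8.44 and 7.63 with Tet+EGF. Here control replicate 1 lay within the range of the Tet libraries, and the wide gap was that of the batch 1 controls to all other libraries. MCM4 was at 11.5, 48.4 and 48.7 without Tet, 11.6, 14.8 and 14.1 with Tet and 9.92 and 8.88 with Tet+EGF. The calls on MCM2 and MCM4 were lost without control replicate 2 or 3 or without Tet replicate 2 or 3, where MCM2 was at -1.32 to -1.21 (limma adjusted p = 0.05195 to 0.05938) and MCM4 at -0.9955 to -0.9578 (0.06646 to 0.07525). With a replicate block MCM4 did not pass either, at -1.14 (limma adjusted p = 0.06903). Summed over the 6 subunits, RPKM was 67.1, 286 and 277 in control, 49.7, 59.8 and 60.2 in Tet and 51.8 and 47.3 in Tet+EGF libraries. The subunits differed in level within a library by 1.94 to 3.81 times, with MCM6 the lowest and MCM7 or MCM4 the highest in each.

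**Figure D2:**
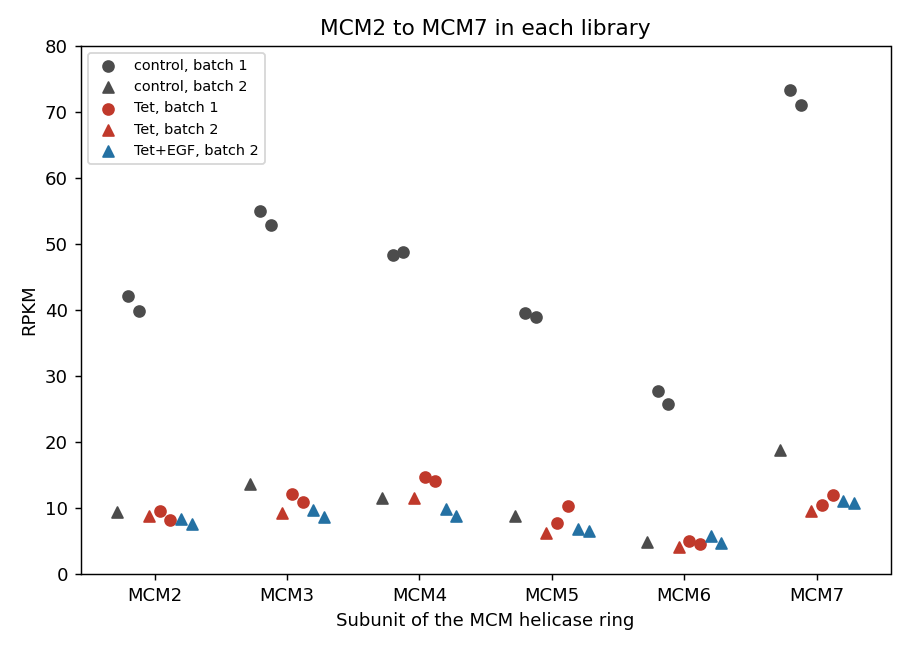
RPKM (linear axis from 0) of MCM2 to MCM7, with 1 point per library, colour for group and shape for batch. For each subunit the batch 1 controls stand apart at 25.7 to 73.3, while the batch 2 control, at 4.93 to 18.8, lies near the Tet and Tet+EGF libraries.

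All 9 helicase activation and origin firing genes fell (median -1.60). CDC45, which joins the ring to form the moving helicase, was at 12.3, 30.04 and 25.7 without Tet, 1.69, 2.54 and 2.87 with Tet and 1.18 and 1.16 with Tet+EGF. Every treated library was far below every control, and the Tet+EGF libraries were the lowest. On the log2 scale Tet+EGF differed from Tet by -0.39 within batch 2 and by -0.19 with batch as a term (limma adjusted p = 0.529 for the latter). At -2.95 with Tet (SE 0.14 and adjusted p = 1.42e-05 by limma) CDC45 had the largest fall of the 47. The GINS subunits partner CDC45 in that helicase. GINS2 was at 9.27, 25.1 and 23.5 without Tet, 1.96, 2.23 and 1.84 with Tet and 1.74 and 1.49 with Tet+EGF, with no overlap between controls and treated libraries, and a log2 fold change of -2.86 (SE 0.25 and adjusted p = 0.000127 by limma). GINS1 fell by 1.44, GINS4 by 1.75 and GINS3 by 0.93. MCM10, which helps to activate the helicase, was at 1.03, 7.35 and 6.80 without Tet, 0.512, 0.666 and 0.758 with Tet and 0.263 and 0.167 with Tet+EGF and fell by 1.96. Its Tet+EGF values were the lowest 2 of the 8, though at these levels the pseudocount of 0.5 shrinks any fold change. For MCM10 Tet+EGF differed from Tet by -0.50 within batch 2 and by 0.18 with batch as a term (limma adjusted p = 0.842 for the latter). DBF4, the activator of the CDC7 kinase, was at 4.20, 4.33 and 5.26 without Tet, 1.07, 1.34 and 1.14 with Tet and 1.26 and 1.58 with Tet+EGF. Its controls were alike in both batches and well above all treated libraries, with a log2 fold change of -1.60 (SE 0.12 and adjusted p = 7.17e-05 by limma). CDC7 itself was at 3.47, 5.84 and 5.92 without Tet, 2.70, 1.36 and 1.27 with Tet and 2.44 and 2.58 with Tet+EGF. Tet replicate 1 was the highest of the Tet libraries and still below every control, and CDC7 fell by 1.31. TOPBP1, a scaffold in helicase activation, fell by 1.08.

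The 10 polymerase and primase genes fell too, with a median of -1.37. POLD2, a small subunit of polymerase delta and the gene with the highest batch 1 control level of the 47, was at 100.3, 103 and 108 without Tet, 61.2, 68.7 and 69.7 with Tet and 74.4 and 76.4 with Tet+EGF. Its 3 controls were close together, the Tet+EGF libraries lay above the Tet libraries and no groups overlapped. The fall with Tet was modest and tightly measured, at -0.64 (SE 0.058 and adjusted p = 0.000145 by limma). POLE3, a histone-fold subunit of polymerase epsilon, was at 25.6, 35.7 and 31.7 without Tet, 15.5, 19.6 and 19.3 with Tet and 16.3 and 15.5 with Tet+EGF and had a log2 fold change of -0.75 (SE 0.072 and adjusted p = 0.000178 by limma). Of the catalytic subunits, POLD1 fell by 1.49, POLE by 1.36 and POLA1 by 1.45. PRIM1, the catalytic primase subunit, was at 5.94, 7.33 and 9.46 in the controls and 1.96, 1.41 and 1.69 with Tet. It fell by 1.87, more than any other gene of this role. The remaining members fell by 1.52 (POLE2), 1.37 (POLA2), 1.02 (PRIM2) and 0.96 (POLD3).

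All 11 genes of the clamp, the clamp loader and Okazaki fragment maturation fell (median -1.41). RNASEH2A, the catalytic subunit of the RNase that removes RNA from DNA, was at 38.3, 50.1 and 48.6 without Tet, 13.4, 14.3 and 14.1 with Tet and 13.9 and 15.4 with Tet+EGF. Controls and treated libraries formed separate ranges, and its log2 fold change was -1.67 (SE 0.084 and adjusted p = 1.66e-05 by limma). RFC1, the large subunit of the clamp loader, was at 22.1, 16.1 and 16.9 without Tet, 8.96, 6.22 and 5.63 with Tet and 11.1 and 11.7 with Tet+EGF. It was the 1 gene of the 47 whose highest control was replicate 1, and its Tet+EGF libraries lay between Tet and control. It fell by 1.36 with Tet (SE 0.078 and adjusted p = 2.49e-05 by limma). The small subunits RFC2 to RFC5 fell by 1.22 (RFC3) to 1.90 (RFC4). PCNA, the clamp, was at 34.01, 80.5 and 79.3 without Tet, 24.9, 24.2 and 18.6 with Tet and 21.5 and 18.96 with Tet+EGF, with replicate 1 the lowest control by a wide margin, and fell by 1.41. Among the maturation enzymes LIG1, the ligase, was at 9.53, 20.3 and 20.8 without Tet, 2.31, 2.26 and 2.69 with Tet and 1.98 and 2.05 with Tet+EGF and fell by 2.49. EXO1, an exonuclease that resects and repairs, fell by 1.93, from 2.25, 4.48 and 4.41 to 0.294, 0.835 and 0.652. FEN1, the flap nuclease, was at 5.45, 36.9 and 34.8 without Tet, 5.70, 9.90 and 8.82 with Tet and 4.95 and 3.96 with Tet+EGF. Its batch 2 control did not exceed any Tet library, and the call on its log2 fold change of -1.23 (SE 0.36 and adjusted p = 0.0228 by limma) was lost without control replicate 2 or 3 or Tet replicate 2 or 3 (-1.095 to -1.004, limma adjusted p = 0.07922 to 0.08699), and with a replicate block (-1.23, limma adjusted p = 0.1064). DSCC1, of the alternative loader that works in sister chromatid cohesion, fell by 1.18.

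Of the 8 single-strand binding and fork protection genes, 7 fell (median -1.20). TIMELESS, which with TIPIN steadies the fork, was at 8.53, 15.3 and 15.2 without Tet, 2.56, 2.43 and 3.07 with Tet and 2.63 and 2.30 with Tet+EGF. All treated libraries lay below all controls, while Tet and Tet+EGF overlapped, and its log2 fold change with Tet was -2.04 (SE 0.16 and adjusted p = 8.80e-05 by limma). WDHD1, which tethers polymerase alpha to the helicase, was at 5.11, 7.70 and 7.10 without Tet, 1.92, 1.59 and 1.52 with Tet and 2.42 and 2.25 with Tet+EGF. Here too control exceeded Tet in every library, with a log2 fold change of -1.70 (SE 0.16 and adjusted p = 0.000145 by limma). CLSPN, the checkpoint mediator claspin, fell by 1.91, MCM8 by 1.24 and TIPIN by 1.03. The RPA trimer coats single-stranded DNA, and its subunits differed. RPA3 fell by 1.16, RPA2 by 0.69, while RPA1 was at 19.4, 29.7 and 26.7 without Tet, 21.5, 18.2 and 17.8 with Tet and 17.1 and 16.6 with Tet+EGF. For RPA1 control replicate 1 lay below Tet replicate 1, and its log2 fold change of -0.37 (SE 0.15) had a limma adjusted p of 0.0760. Without control replicate 1 or without Tet replicate 1 it was -0.63 (limma adjusted p = 0.0002004 and 0.000203).

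The change with Tet differed between the batches. In batch 1, with 2 libraries per group, all 47 genes fell (median -1.81, background 31.9% of all genes lower). In batch 2, with 1 library per group and the spread taken from the other groups, 35 fell and 12 did not pass (median -0.71, background 32.8%). The test of the difference itself called 34 genes, all with a smaller fall, or none, in batch 2 (median difference 0.91 log2 units), where 9.24% of all genes were called in that direction and the median over all genes was -0.08. By role the median difference was 1.65 for licensing, 1.03 for activation and firing, 0.82 for polymerases, 0.79 for clamp and maturation, and 0.75 for fork protection. MCM4 fell by 1.72 in batch 1 and was at 0.01 in batch 2, a difference of 1.73 (SE 0.12 and adjusted p = 0.000736 by limma). For MCM2 the batch values were -2.15 and -0.09, and for MCM7 they were -2.63 and -0.93. In all, 11 genes fell in batch 1, were not called in batch 2 and had a called difference: MCM2, MCM4, MCM6, GMNN, GINS3, CDC7, POLA2, POLD3, PCNA, FEN1 and RPA1. For 12 genes that fell in both batches no difference was called, namely CDC6, CDC45, DBF4, PRIM1, POLD1, POLD2, POLE3, RFC1, RFC2, RNASEH2A, EXO1 and MCM8.

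**Figure D3:**
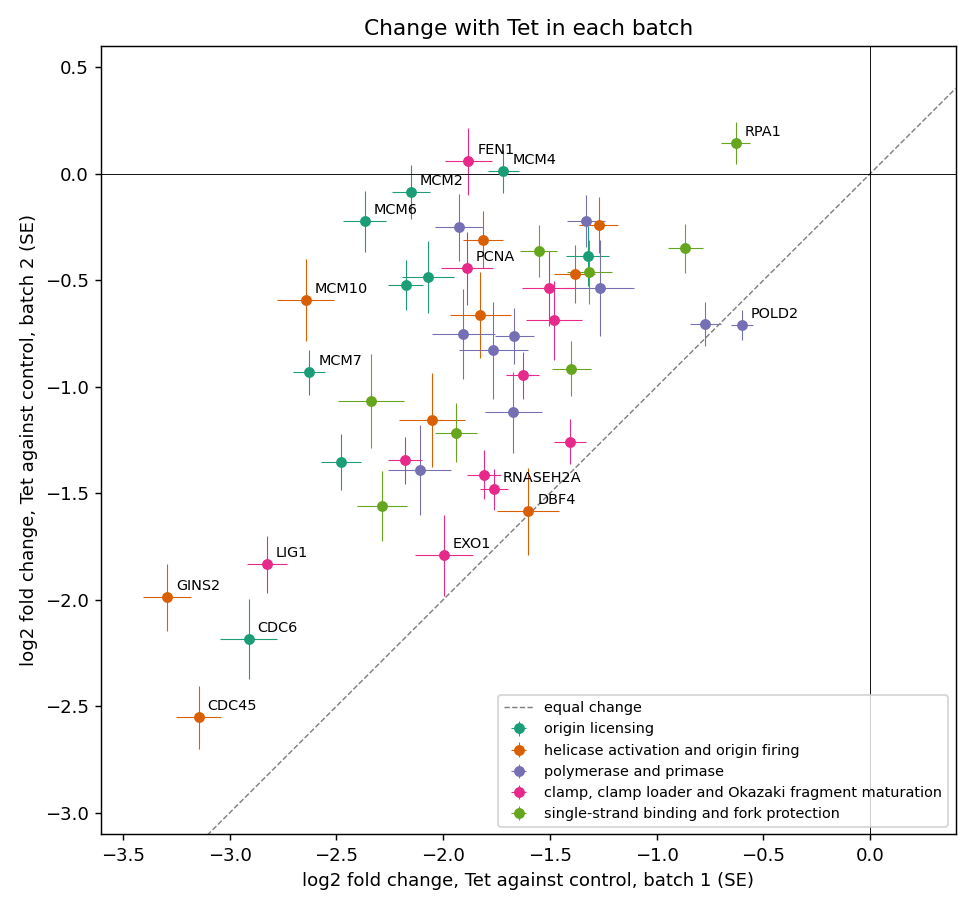
Log2 fold change of each replication gene between Tet and control in batch 1 (horizontal axis) and in batch 2 (vertical axis), with bars of 1 SE and colour for role; the dashed line marks equal change. All points but POLD2 lie on or above the line, where the fall was smaller in batch 2, and CDC45 and CDC6 were low in both.

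Levels showed where the batches parted. Control replicate 1 was below both other controls for 46 of the 47 genes, at a median of 50.6% of the batch 1 control mean (14.5% for MCM10 to 134% for RFC1). The share of all genes tested with this order of the controls was not computed. Tet replicate 1 was at a median of 93.5% of the batch 1 Tet mean. In a comparison added after these levels were seen, 40 genes were lower and 1, RFC1, was higher in the batch 2 control than in the batch 1 controls (median -0.85 beside 0.13 for all genes, with 17.5% of all genes lower and 32.7% higher). The same contrast among Tet libraries called 12 lower and 5 higher (median -0.08, with 18.9% and 21.2% of all genes). FEN1, at -2.61, MCM6, at -2.33, and MCM10, at -2.31, differed most between the controls, while POLD2 (-0.07) and DBF4 (-0.16) did not pass. The batch 2 control is 1 library, so a difference between batches and one particular to that library cannot be told apart.

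With EGF added to Tet, 2 of the 47 genes were higher than with Tet alone, 2 were lower and 43 did not pass. Both Tet+EGF libraries belonged to batch 2, so the comparison within that batch, against Tet replicate 1, needs no assumption on batch, although the lone Tet library is taken to vary like the other groups. There POLD2 was 0.30 higher (SE 0.062 and adjusted p = 0.0103 by limma) and RFC1 0.33 higher (SE 0.092 and adjusted p = 0.0332 by limma), while RPA1 fell by 0.35 (SE 0.085 and adjusted p = 0.0193 by limma) and MCM4 by 0.29 (SE 0.088 and adjusted p = 0.0395 by limma). The median of the 47 was -0.05, with log2 changes from -0.52 (GINS1) to 0.33 (RFC1). Among all genes, 14% were called lower and 19.7% higher. A missed threshold does not show equal levels, and the median SE of these log2 changes was 0.12. Calls on RPA1, POLD2, RFC1 and MCM4 were each lost when 1 of the Tet+EGF libraries was left out, and the MCM4 call also without control replicate 2 or 3. Without a trend in eBayes MCM4 missed the threshold (limma adjusted p = 0.06218), as did RFC1 under quantile scaling (limma adjusted p = 0.05106).

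**Figure D4:**
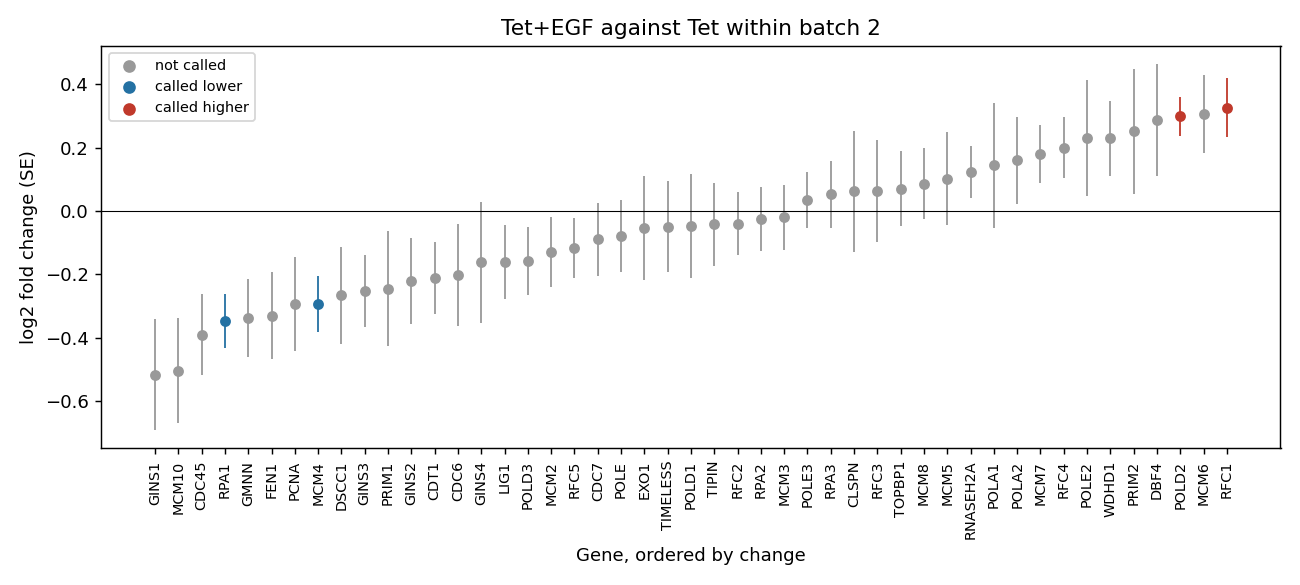
Log2 fold change between the Tet+EGF libraries and Tet replicate 1 within batch 2 for each replication gene, in order of size, with bars of 1 SE. Values run from -0.52 to 0.33 around 0, and 2 genes were called in each direction.

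In the fit with batch as a term over all 8 libraries, 1 gene was called higher with EGF and 0 lower. The gene was RFC1, at 0.38 (SE 0.10 and adjusted p = 0.0453 by limma). The fit with batch as a term takes the shift between batches to be the same in every group. The change with Tet, however, had a called difference between batches for 34 of the 47 genes. The median of the 47 was 0.22 in this fit, beside -0.05 within batch 2, where no such assumption is made. Of all genes, 9.82% were called higher in this fit and 9.15% lower. At an unadjusted limma p under 0.05, 2 of the 47 were higher and 0 lower, beside 2180 higher and 1881 lower of 12567 genes. Without Tet replicate 1 the remaining Tet libraries are of batch 1, and the batch term then rests on the controls alone. Their batch 2 minus batch 1 median was -0.85 for the 47 genes. That gap therefore enters the EGF comparison in full, and the median over all genes was -0.04 there. The count of called genes turned on single libraries. It was 37 higher without Tet replicate 1 (median 0.83), 4 (2 higher and 2 lower) without control replicate 1, 0 when any other library was left out, and 0 when a replicate block took the place of the batch term. Against control, 32 genes were lower in Tet+EGF (median -1.09, 16.2% of all genes), and 40 within batch 2 (median -0.75, 28.9%). These comparisons share their control and Tet+EGF libraries with those above. The count of 32 was 20 without Tet+EGF replicate 1 and 19 without Tet+EGF replicate 2, and the median was -1.77 without control replicate 1. CDC45 stood at -3.14 and CDC6 at -2.63 against control. For 45 of the 47 genes both Tet+EGF libraries lay below every control, MCM6 and POLA2 being the exceptions. In 8 genes both lay above every Tet library, and in 14 below every Tet library. The shares of all genes tested with such separation of the Tet+EGF libraries were not computed, so these counts only describe the 47.

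Another 35 genes of replication, listed from their known roles, moved less uniformly. With Tet 24 fell, 1 rose and 10 did not pass (median -0.61). SSRP1, a subunit of the FACT histone chaperone that travels with the fork, was at 133, 147 and 131 without Tet, 21.7, 26.5 and 27.5 with Tet and 20.7 and 18.9 with Tet+EGF. Its controls were alike in both batches and all far above the treated libraries, with a log2 fold change of -2.42 (SE 0.085 and adjusted p = 5.94e-06 by limma). TRAIP, a ubiquitin ligase that helps to unload the helicase, fell by 2.24, ORC6 (ORC6L in the table) by 1.66 and the helicase RECQL4 by 1.65. POLE4, of polymerase epsilon, rose by 0.28 (SE 0.097 and adjusted p = 0.0413 by limma), from 36.4, 38.5 and 30.5 to 42.1, 44.8 and 41.3, with no overlap between the groups. In the origin recognition complex ORC1 (ORC1L in the table) fell by 2.44, ORC3 (ORC3L) by 0.53 and ORC2 (ORC2L) by 0.32, whereas ORC4 (ORC4L) at -0.08 and ORC5 (ORC5L) at -0.37 did not pass. The ORC genes other than ORC6 were picked for description after their values were seen.

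The promoters of these genes were searched for words of factors known to act on cell cycle genes. RefSeq promoter windows (GRCh38.p14, 250 bases before to 50 after the gene start) were matched by symbol for 40 of the 47 genes. E2F words on opposite strands can overlap, as in MCM6, where TTTGGCGC overlaps the reverse complement of TTTCGCGC. An E2F word (TTTGGCGC, TTTCCCGC, TTTGCCGC or TTTCGCGC, on either strand) was present in 20 of 40 promoters, which is 50%. It was in 5.48% of 8468 promoters of genes tested and 3.33% of all 27305 promoters. By role it was in 6 of 7 licensing, 4 of 8 activation and firing, 4 of 9 polymerase, 4 of 10 clamp and maturation, and 2 of 6 fork protection promoters. CCAAT was in 52.5% against 36.8% of promoters of genes tested, and the words TTTGAA or TTCGAA of the CHR element in 5% against 10.9%. Windows of 30 bases around an E2F word of 6 genes of 3 roles show the motif in its setting, 5′ to 3′ on the gene's strand, with the word in capitals. They lie at chr16:88803743-88803772 on the plus strand (CDT1), chr2:135876577-135876606 on the minus strand (MCM6), chr7:100101566-100101595 on the minus strand (MCM7), chr16:85688967-85688996 on the minus strand (GINS2), chr20:5126663-5126692 on the minus strand (PCNA) and chr19:48170440-48170469 on the minus strand (LIG1).
CDT1: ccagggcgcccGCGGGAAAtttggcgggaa
MCM6: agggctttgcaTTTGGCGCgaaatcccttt
MCM7: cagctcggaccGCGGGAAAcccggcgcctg
GINS2: ctctcgccgtgGCGGGAAAacggcggccgc
PCNA: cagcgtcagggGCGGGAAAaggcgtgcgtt
LIG1: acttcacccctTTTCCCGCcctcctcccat
In LIG1 and MCM6 the word reads on the gene's own strand, and in the other 4 its reverse complement does. The 20 genes with an E2F word had a median log2 fold change with Tet of -1.49 and the 20 without it -1.44. Between the batch 2 and batch 1 controls the medians were -1.39 and -0.50. The promoters of CDC45, RFC2, RNASEH2A and TIMELESS held no E2F word in this window, although all 4 fell with Tet. A match describes the sequence and does not show a site in use.

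Some values may mix reads of neighbouring or near-identical sequences, since the sources used here give neither strand use nor the treatment of multiple alignments. Exons of 16 of the 47 genes overlapped those of another gene in GENCODE v29, 4 of them on the same strand, including FEN1 with FADS2. MCM7 overlapped AP4M1, MCM2 overlapped TPRA1 and RPA3 overlapped UMAD1. For 9 genes, DBF4, POLD2, PCNA, RFC3, RFC5, FEN1, RPA2, RPA3 and TIPIN, a pseudogene bears the gene's name.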

How the data were processed

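Poly(A) RNA of N/TERT-2G keratinocytes (8 libraries) was prepared with the Illumina mRNA-Seq kit and sequenced 1 library to a lane on a Genome Analyzer IIx, per the labels. The authors used TopHat 1.3.3, per the submitters' processing notes, and deposited RPKM values per gene and library in 1 table. The sources used here give no counting tool, genome build or gene annotation. Steps between low values put relative depth at 63.4% to 120.2% of control replicate 1, an estimate that can be off by a whole multiple, and no depth per library is stated.

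Starting from the deposited RPKM, limma 3.58.1 (R 4.3.3) was run on log2(RPKM + 0.5) of every library with terms for group and batch, using a trended eBayes prior. A second fit with 1 mean per group and batch, which leaves 3 residual degrees of freedom, gave values within a batch and differences between batches. Tests were two-sided, adjusted by Benjamini-Hochberg over the 12567 genes kept. RPKM are not counts, so no count model was used, and the pseudocount shrinks fold changes of low genes. Both fits were run on simulated data in which the change with Tet was the same in each batch. The runs checked Tet against control, in the second fit for batch 1 only. They did not cover comparisons with EGF, batch 2 values or differences between batches. Other steps ran in Python 3.11.15 with pandas 2.3.3.

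The genes and lists were chosen with earlier results of these data known. RPKM per library was given for the 2 genes of each role with the smallest p for Tet against control and those not called there. It was also given for those called with EGF (up to 6 per comparison) and the 3 with the smallest p for the batch difference. For that difference SE and adjusted p were given for MCM4 only. Of other replication genes, up to 4 with the smallest p and each that rose were named. Remaining genes were picked for description after their values were seen. Same-numbered control and Tet libraries deviated together from their group means (correlation across genes of 0.4765, 0.3141 and 0.3384), which led to a fit with a replicate block. Batch 1 libraries of unlike number gave 0.2722 and 0.3343. Within batch 1, the differences between replicates 2 and 3 in control and in Tet correlated at 0.03872 across genes. Replicate 1 is the lone control and the lone Tet library of batch 2, so there number and batch cannot be told apart. Tet+EGF replicate 2 belonged to batch 2, whereas control replicate 2 and Tet replicate 2 belonged to batch 1. The replicate block therefore does not remove batch from comparisons with Tet+EGF. Alternatives changed the pseudocount, filter, scaling, trend, batch term and the libraries included.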

Additional observations from a re-analysis of the deposited data

Results flagged for a closer look

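For 34 of the 47 replication genes, the log2 fold change with Tet differed between the batches by the interaction test (limma adjusted p under the threshold of 0.05 over all genes). Each difference is given as the batch 2 value minus the batch 1 value, and all were positive, so the fall was smaller or absent in batch 2, which holds 1 control and 1 Tet library. Among origin licensing genes the difference was 2.06 for MCM2, 1.65 for MCM3, 1.73 for MCM4, 1.59 for MCM5, 2.14 for MCM6, 1.696 for MCM7, 1.13 for CDT1 and 0.94 for GMNN. In helicase activation and firing the difference was 1.16 for GINS1, 1.31 for GINS2, 1.03 for GINS3, 0.895 for GINS4, 2.05 for MCM10, 1.503 for CDC7 and 0.91 for TOPBP1. For polymerase and primase subunits the difference was 0.94 for POLA1, 1.67 for POLA2, 1.11 for POLD3, 0.904 for POLE and 1.15 for POLE2. In the clamp, loader and maturation group the difference was 1.45 for PCNA, 0.79 for RFC3, 0.83 for RFC4, 0.68 for RFC5, 0.97 for DSCC1, 1.94 for FEN1 and 0.99 for LIG1. For fork protection genes the difference was 0.77 for RPA1, 0.52 for RPA2, 1.19 for RPA3, 0.72 for TIMELESS, 0.85 for TIPIN, 1.27 for CLSPN and 0.73 for WDHD1. The cause was not tested.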

How the results depend on the processing

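Across the alternatives no called result changed direction (a change of sign that passed under neither setting was not counted). Of the counts of genes called, 5 rose and 16 fell by more than 1.5 times or past the threshold, and the medians moved by more than the spread in 15 of their alternatives. For Tet against control the count was 42 to 47 when 1 library was left out, 44 with the replicate block, and 29 under the filter of mean RPKM 5 or more, which left 29 of the genes to test. Its median was -1.812 to -1.323 when 1 library was left out. In batch 1 the median was -1.925 with a pseudocount of 0.1 and -1.653 with 1, and in batch 2 -0.8293 with 0.1.

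For Tet+EGF against control the count was 20 under that filter and 19 to 47 when 1 library was left out. Its median was -1.494 without a batch term, -1.433 with the replicate block, -0.751 with only those groups, and -1.771 to -0.751 when 1 library was left out. Within batch 2 it was -0.8573 with a pseudocount of 0.1. For Tet+EGF against Tet, where 1 gene was called, the count was 2 without a filter, 3 with only those groups, and 0 under quantile scaling, upper-quartile scaling, no trend, no batch term or the replicate block. It ranged from 0 to 37 when 1 library was left out, the highest without Tet replicate 1, while its median was -0.1023 without a batch term and -0.04836 to 0.8292 when 1 library was left out. Within batch 2, where 4 genes were called, the count was 7 with a pseudocount of 0.1 and 0 to 6 when 1 library was left out. Between the controls of the batches, the median was -0.9757 with median-ratio and -0.9689 with quantile scaling, while the first moved the median of all genes from 0.13 to -0.01. The replicate block ended the calls on MCM4 and FEN1 with Tet, given above, and on RFC1 for Tet+EGF against Tet (0.61, limma adjusted p = 0.104), and changed no other call on the genes named by the rule. MCM2, MCM4, FEN1 and RPA1 were called lower with Tet in 14, 13, 13 and 2 of 19 alternatives. Without a batch term MCM5, MCM6, GINS3 and POLA2 also missed the threshold (limma adjusted p = 0.05079 to 0.08476). The causes were not tested. Batch 2 holds 1 control and 1 Tet library, which limits every value that rests on it.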
